A study of Homo sapiens with 13 samples.

Results

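Metallothioneins are small, cysteine-rich proteins that bind zinc and copper, and their genes are classical targets of the metal-sensing transcription factor MTF1. When free zinc rises in a cell, MTF1 binds short metal response elements upstream of these genes and of SLC30A1, which encodes the zinc exporter of the plasma membrane. MT2A and the MT1 genes therefore store zinc and SLC30A1 removes it, and in cultured cells their RNA is known to respond to metals, glucocorticoids and stress.

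The genes followed here were 7 metallothioneins (MT1E, MT1F, MT1G, MT1H, MT1M, MT1X and MT2A) and SLC30A1, so 8 of the 61541 human genes in the tables. They were picked by name, after their measured profiles over time and over inhibitor dose had been seen, so their own levels, slopes and counts are a description and carry no test. All 8 were found in both experiments. The tables hold 21 metallothionein genes and pseudogenes in all, and the 7 members carried nearly all of their counts. In counts per 1000000 counts of the library (CPM), the sum over all 21 was 531 ± 35.5 (SD, n = 2) at 0 h, and that over the 7 was 529 ± 34.8.

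All cells were RUES2, a human embryonic stem cell line, carrying a GFP::SMAD4 fusion in which the shared mediator of BMP and Nodal signalling is tagged with a fluorescent protein. In the time series, cells received 100 ng/mL BMP4 with 5 µM of the WNT secretion inhibitor IWP2 and a ROCK inhibitor. RNA was taken at 0 h (2 libraries) and after 4, 12, 20, 28 and 42 h (1 library per time) from total RNA after removal of ribosomal RNA, and the labels list the same treatment for 0 h as for the later times. In the dose response, cells received the same agents for 5 h with 0, 10, 30, 100 or 300 nM LDN-193189, an inhibitor of BMP receptors, and 1 further library came from untreated cells in the mTeSR stem cell medium. These 6 libraries came from polyadenylated RNA and another extraction kit, so levels were not compared between the experiments. Every group used here is this 1 tagged line, and replicates exist for 0 h only.

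Library totals were 37957385 to 71333471 counts in the time series and 15600931 to 33989998 in the dose response. The labelled cell type was borne out at the start. The 6 pluripotency markers had 58.8 to 1362 CPM at 0 h, and the 6 amnion markers summed to 12.1 CPM at 0 h and 4383 at 42 h. The 4 primitive streak markers summed to 1.60 and 1.85 CPM at these times. Of 5 fibroblast markers, the defining DCN had 0 counts in both 0 h libraries, while COL1A1 and THY1 had 167 and 271 CPM. The mitochondrial share of counts was 7.60% and 4.29% in the 0 h libraries and 2.01% to 4.23% later, and 7.89% in untreated cells against 4.22% to 4.49% in the other 5 libraries of the dose response.

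The 7 metallothioneins lay in a single stretch of chromosome 16 (GRCh38, chr16:56608584-56684196, 75613 bases), with MT1G on the minus strand and the other 6 on the plus strand. SLC30A1 was on the minus strand of chromosome 1 (chr1:211571568-211579161). The 250 bases upstream of the start were available from RefSeq (GRCh38.p14) for 4 of the 8 members and are shown because MTF1 acts through such windows: MT2A (chr16:56608334-56608583), MT1H (chr16:56669564-56669813), MT1X (chr16:56682220-56682469) and SLC30A1 (minus strand, chr1:211579162-211579411). MT1E, MT1F, MT1G and MT1M are only named. Each sequence runs 5′ to 3′ on the strand of its gene and ends at the base before the start. Capitals mark matches to the core of the metal response element, searched as TGCACNC or TGCGCNC on both strands.
MT2A: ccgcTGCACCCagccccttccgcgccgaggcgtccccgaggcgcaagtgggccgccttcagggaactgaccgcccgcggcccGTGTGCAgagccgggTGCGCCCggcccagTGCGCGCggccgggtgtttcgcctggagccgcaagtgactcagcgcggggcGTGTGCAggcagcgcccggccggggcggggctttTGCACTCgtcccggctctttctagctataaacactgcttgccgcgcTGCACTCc
MT1H: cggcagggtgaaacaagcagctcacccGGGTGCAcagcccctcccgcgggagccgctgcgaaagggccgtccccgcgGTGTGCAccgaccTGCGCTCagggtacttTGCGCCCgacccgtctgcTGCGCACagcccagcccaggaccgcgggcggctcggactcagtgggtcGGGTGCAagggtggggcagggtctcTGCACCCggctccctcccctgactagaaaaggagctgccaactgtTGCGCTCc
MT1X: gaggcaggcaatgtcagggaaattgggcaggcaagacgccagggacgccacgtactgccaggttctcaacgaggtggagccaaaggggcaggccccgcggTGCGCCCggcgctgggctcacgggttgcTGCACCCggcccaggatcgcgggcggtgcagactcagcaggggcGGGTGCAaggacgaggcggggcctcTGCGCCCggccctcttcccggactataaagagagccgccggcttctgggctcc
SLC30A1: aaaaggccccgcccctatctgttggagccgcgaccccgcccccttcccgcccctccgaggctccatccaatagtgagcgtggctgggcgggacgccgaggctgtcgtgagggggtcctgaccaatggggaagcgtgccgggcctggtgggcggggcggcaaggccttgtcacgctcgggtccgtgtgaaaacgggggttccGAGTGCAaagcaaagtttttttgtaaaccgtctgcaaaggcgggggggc

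MT2A held 7 matches, MT1H 8, MT1X 4 and SLC30A1 1. Of 35116 promoters in the same table, 24.8% held at least 1 match in the same window, 6.48% at least 2 and 0.370% at least 4. At least 7 matches occurred in 0.0313% of promoters and at least 8 in 0.0171%. Nearest the start, MT1H had matches beginning at −78, −53 and −8, MT2A at −88, −54 and −8, MT1X at −78 and −53, and SLC30A1 at −49. These are matches of letters, with no measurement of binding.

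The metallothioneins are close copies, and this bears on how far their separate levels can be trusted. The principal coding sequences were 186 bases long in all 7, and the 21 pairs were 88.7% to 95.2% identical (median 91.9%). Over the whole transcripts, the share of 50-base windows found also in another of the 7 ran from 0.458% in MT1E to 19.9% in MT1G, with 13.2% in MT1X. RSEM divides reads that fit several genes by estimate, so the split between these genes is uncertain where windows are shared, and the summed level is not affected by how reads are divided among the 7.

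In the time series, the summed metallothionein level fell through every interval. It was 553.2 CPM in 0 h replicate 1 and 504.0 in replicate 2, then, in order of hours, 260.1, 110.5, 45.7, 20.8 and 5.20 CPM at the 5 later times. As a share of the 0 h mean these were 49.2%, 20.9%, 8.64%, 3.94% and 0.983%. The 0 h libraries differed by 1.10-fold, and each later library lay below both. At 42 h the sum was 102-fold lower than at 0 h (91.1 to 114, a 95% interval for counting error only). The time series holds no untreated library after 0 h. For this sum and for every other gene, hours of treatment and hours in culture therefore cannot be told apart. In bulk RNA, fewer cells that express a gene and less RNA per cell cannot be told apart. Over the same hours the 6 pluripotency markers went from a sum of 3208 to 1263 CPM. Of the 1263, POU5F1 made up 1145 (1362 at 0 h), while SOX2 went from 382 to 11.6 CPM, NANOG from 131 to 1.08 and PRDM14 from 58.8 to 0.196. The part of these marker changes, and of the increase in amnion markers, in the metallothionein change was not tested.

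**Figure D1:**
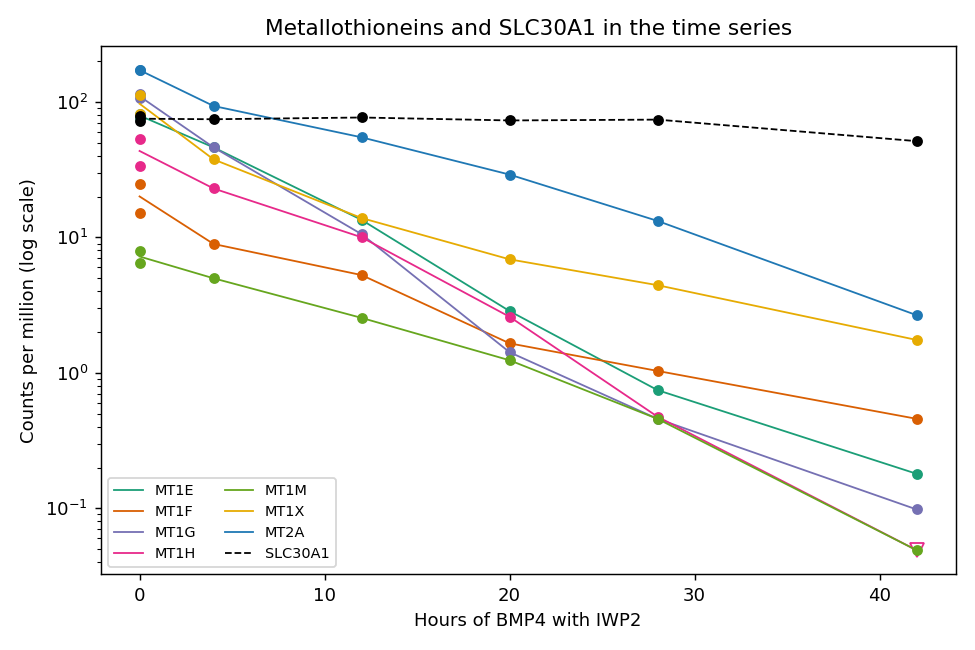
Level of each gene in CPM (log axis) against hours of BMP4 with IWP2; each point is 1 library, lines join the levels (the mean of both libraries at 0 h), and the open triangle marks MT1H at 42 h, which had 0 counts, at the level of 3 counts. The 7 metallothioneins descend together, while SLC30A1 (dashed) stays between 51.3 and 78.2 CPM.

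MT2A, which is expressed in most human tissues, had 172.1 and 171.1 CPM in the 0 h libraries, then 93.3, 54.8, 29.1, 13.2 and 2.66 CPM at the 5 later times. Its 0 h libraries agreed within 1.01-fold, and no later library reached them. At 42 h its level was 64.4-fold lower than at 0 h (counting interval 55.2 to 75.6).

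MT1G had 106.6 and 113.5 CPM at 0 h, and 46.2, 10.6, 1.42, 0.457 and 0.0980 CPM at the 5 later times. At 42 h only 6 counts were left, 0.0891% of the 0 h mean, and its fitted slope was the steepest of the 8. MT1E had 76.7 and 81.9 CPM at 0 h, and 46.1, 13.5, 2.86, 0.745 and 0.180 CPM at the 5 later times. Both genes had 0 h libraries that agreed within 1.07-fold, and every later library lay below them.

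MT1X had 111.9 and 82.0 CPM in the 0 h libraries, and 37.6, 13.9, 6.88, 4.43 and 1.75 CPM at the 5 later times. At 4 h 38.8% of its 0 h mean was left, the lowest share among the 8 genes, and at 42 h 1.80%. The separate 0 h libraries place the 4 h level at 33.6% and 45.9% of 0 h.

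MT1H had 53.1 and 33.7 CPM at 0 h, and 22.9, 10.0, 2.59 and 0.474 CPM at 4, 12, 20 and 28 h. It was not detected at 42 h, with 0 counts of 61196400, where the floor of 3 counts is 0.0490 CPM. Taken at this floor, the 42 h level was 886-fold lower than the 0 h mean, and 688-fold lower than 0 h replicate 2 alone. The exact 95% counting interval reaches 0.0603 CPM, and places the level at least 720-fold below the 0 h mean. MT1F had 24.9 and 15.2 CPM at 0 h, and 8.94, 5.27, 1.65, 1.03 and 0.458 CPM at the 5 later times. MT1M had 7.96 and 6.49 CPM at 0 h, and 4.99, 2.54, 1.24, 0.457 and 0.0490 CPM at the 5 later times, where 3 counts remained.

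For MT1F, MT1H and MT1X the 0 h libraries differed by 1.63-fold, 1.58-fold and 1.36-fold (log2 0.71, 0.66 and 0.45), with replicate 1 the higher. Across the 15933 genes compared, the SD of this log2 difference was 0.44, and 2.15% of genes differed by more than 2-fold. Replicate 1 was also the library with the larger mitochondrial share, and the part of that in these differences was not tested. The fall is visible from either library: at 12 h MT1F stood at 21.2% of replicate 1 and 34.6% of replicate 2, and MT1H at 18.8% and 29.7%.

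SLC30A1, the exporter, did not follow the metallothioneins. It had 72.1 and 78.2 CPM at 0 h, and 74.5, 76.7, 73.0, 74.0 and 51.3 CPM at the 5 later times. Up to 28 h its levels lay within the range of the 0 h libraries. The 42 h library was the lowest at 68.3% of the 0 h mean (log2 −0.55 on library totals). On that scale the median of all genes shifted by −0.25, and 35.9% of genes had an equal or lower log2 difference. After TMM scaling (trimmed mean of M values) the median shifted by −0.01, and the −0.55 of SLC30A1 is not on that scale.

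A straight line in hours was fitted to every gene that averaged 1 CPM or more, with edgeR's quasi-likelihood test and TMM scaling. The slope is the log2 change per 10 h. Among the members it was −2.71 ± 0.14 (SE) for MT1G, −2.30 ± 0.17 for MT1H, −2.21 ± 0.09 for MT1E, −1.47 ± 0.11 for MT1M, −1.35 ± 0.14 for MT1X, −1.31 ± 0.06 for MT2A and −1.298 ± 0.13 for MT1F. SLC30A1 had −0.04 ± 0.04. The members thus spread into 3 slopes steeper than −2, 4 near −1.3 to −1.5, and the nearly level SLC30A1. Neighbours in that order, MT1H with MT1E and MT1M with MT1X, MT2A and MT1F, differ by about the size of their SE or less. Of the 8 members, 7 were called as falling at an adjusted p under 0.05, where 17.5% of all 15976 genes were, and 0 as rising, where 19.2% were. Since the members were chosen with these profiles known, nothing is read from those counts. The median slope was −1.41 over the 8 members and −0.0011 over all genes.

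As single steps against the 0 h mean, 3 of the 8 members (MT1F, MT1G and MT1X) were at least 2-fold lower at 4 h. That drop was found in 0.933% of genes. At 42 h 7 of the 8 were at least 2-fold lower, against 20.4% of genes. MT1F at 4 h stood at 35.9% of 0 h replicate 1 and 58.7% of replicate 2, so it passed 2-fold against replicate 1 only. MT1H, at 43.2% and 68.0%, passed against replicate 1 but not against the mean. MT1G and MT1X passed against each 0 h library. The median log2 difference of the members at 4 h was −0.90, and that of all genes 0.07. The sum went down 2.03-fold to 4 h, then 2.35-fold, 2.42-fold, 2.20-fold and 4.01-fold over the following intervals, which were of unequal length. The size of each step differed by gene. MT1G went down 2.38-fold from 0 to 4 h, 4.37-fold from 4 to 12 h and 7.44-fold from 12 to 20 h, while MT2A went down 1.84-fold, 1.70-fold and 1.88-fold over the same intervals. From 28 to 42 h MT2A dropped 4.96-fold (counting interval 4.19 to 5.91) and MT1X 2.54-fold (2.02 to 3.21).

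Because the members fell at different rates, the make-up of the remaining metallothionein RNA changed. Levels of different genes were compared on the FPKM scale, which divides by transcript length. At 0 h MT2A had 1258 ± 0.63 FPKM (SD, n = 2), MT1G 769 ± 35.6, MT1X 694 ± 150, MT1H 326 ± 102, MT1E 188 ± 8.19, MT1F 127 ± 43.0, MT1M 54.1 ± 7.60 and SLC30A1 13.4 ± 0.76. In 0 h replicates 1 and 2, MT2A made up 34.9% and 38.9% of the summed FPKM, MT1G 20.7% and 24.6%, and MT1X 22.2% and 18.2%. At 12, 20 and 42 h, MT2A's share was 54.6%, 67.2% and 56.3%, and MT1G's was 10.0%, 3.10% and 1.98%. MT1X went from 13.4% at 12 h to 32.9% at 42 h. By 42 h, MT2A and MT1X stood first and second in level among the 8 genes, followed by SLC30A1 and MT1F, whereas at 0 h SLC30A1 stood last. MT1G and MT1X changed places between the 0 h libraries, so their order at 0 h was not settled.

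**Figure D2:**
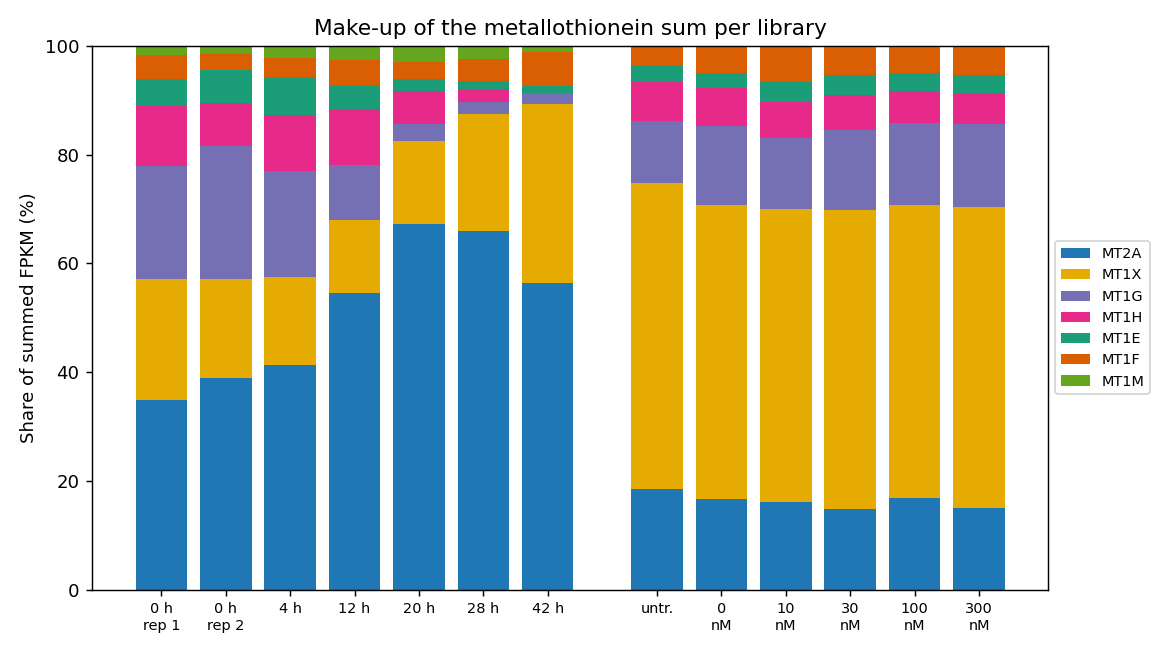
Share of the summed FPKM of the 7 metallothioneins that each gene took in each library, with the time series left and the dose response right. MT2A grows from 34.9% and 38.9% at 0 h to 67.2% at 20 h, and MT1X makes up over 53% of the sum in every library of the dose response.

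The 2 nearest tested protein-coding genes on each side of the cluster showed no fall of this size. They were added after their values were seen, so this comparison is a description, and whether the fall is confined to the cluster was not tested. BBS2, a ciliary gene 25917 bases before MT2A, had 6.64 ± 0.26 CPM at 0 h (SD, n = 2) and 8.82 at 42 h (slope 0.11 ± 0.06, edgeR adjusted p = 0.196). The protein-coding gene ENSG00000288725, 107087 bases before MT2A, had 8.86 ± 0.28 CPM at 0 h and 8.37 at 42 h (edgeR adjusted p = 0.844). NUP93, a nuclear pore gene 45922 bases beyond MT1X, had 116 ± 16.4 CPM at 0 h and 96.8 at 42 h (edgeR adjusted p = 0.775). HERPUD1, a gene of the endoplasmic reticulum stress response 247946 bases beyond the cluster, rose from 12.0 ± 1.32 to 42.5 CPM (slope 0.41 ± 0.06 per 10 h, edgeR adjusted p = 0.00200). The 3 annotated long noncoding RNAs inside the cluster had 0 counts in all libraries.

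**Figure D3:**
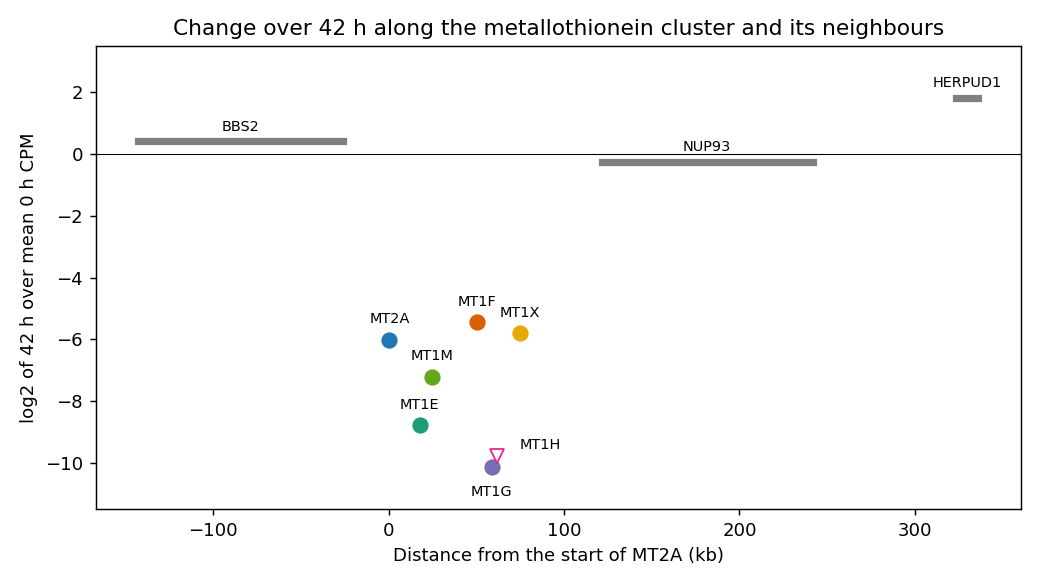
Log2 of the 42 h level over the mean 0 h level (CPM) against distance in kb from the start of MT2A. Coloured points are the 7 metallothioneins, and the open triangle is MT1H at the floor of 3 counts. Grey bars span the nearest tested protein-coding genes that have a name. The metallothioneins lie between −5.45 (MT1F) and −10.13 (MT1G), and the 3 neighbours near or above 0.

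The other metallothioneins of the cluster were barely expressed. MT1A had 1.42 and 1.02 CPM at 0 h, then 0.684, 0.251 and 0.149 CPM up to 20 h, 1 count at 28 h and 0 at 42 h. MT1L had 0.843 and 0.407 CPM at 0 h and 2 counts at 42 h. MT1B, MT1DP and MT1JP stayed under 0.5 CPM in every library, and the brain-type MT3 and the epithelial MT4 were at or near 0. MTF1, the zinc sensor, had 33.2 and 25.1 CPM at 0 h, and 32.4, 30.1, 28.6, 24.7 and 21.7 CPM at the 5 later times. Its slope of −0.05 ± 0.04 per 10 h did not pass the test (edgeR adjusted p = 0.378).

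The dose response asked whether the genes follow the strength of BMP signalling at 5 h. The metallothioneins summed to 67.1, 67.3, 66.6, 65.1 and 71.0 CPM at 0, 10, 30, 100 and 300 nM LDN. The highest library exceeded the lowest by 1.09-fold. At 300 nM the sum was 1.06 times that at 0 nM (counting interval 0.995 to 1.12). Without MT2A the ratio was 1.08 (1.01 to 1.15), an interval above 1 that covers counting error only. On summed FPKM the log2 ratio was 0.007.

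MT1X, the most abundant metallothionein in these libraries, had 34.3, 33.7, 34.2, 33.0 and 37.1 CPM at these doses. MT2A had 10.4, 9.89, 8.95, 10.1 and 9.74 CPM, and MT1G had 9.57, 8.38, 9.41, 9.42 and 10.3. MT1E had 5.04, 6.50, 6.33, 5.69 and 6.06 CPM, MT1H had 4.28, 3.97, 3.78, 3.47 and 3.80, and MT1F had 3.44, 4.68, 3.72, 3.22 and 3.77. For MT1F the counting intervals at 10 nM (3.98 to 5.46) and 100 nM (2.62 to 3.91) did not overlap. None of these series moved in 1 direction over all 5 doses. MT1M had 3 to 8 counts per library and was under the minimum for the fit.

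SLC30A1 had 63.2, 62.1, 58.4, 58.6 and 57.6 CPM from the lowest to the highest dose. The ratio of 300 nM to 0 nM was 0.912 (counting interval 0.855 to 0.973). In a fit of log2 level against dose step over the 5 libraries, its slope was −0.03 ± 0.01 per step and those of the 6 fitted metallothioneins lay between −0.05 (MT1H) and 0.04 (MT1G).

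Of the 7 members measured, 0 were called in either direction by the edgeR quasi-likelihood test at an adjusted p under 0.05, where 10.9% of 14907 genes fell with the inhibitor and 10.4% rose. At an unadjusted p under 0.05, 1 of the 7, SLC30A1, was past it, and DESeq2 called 0. Between 300 nM and 0 nM, 0 of the 7 differed by 2-fold, against 3.89% of all genes. These counts too are a description, since the dose profiles were known when the members were picked.

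**Figure D4:**
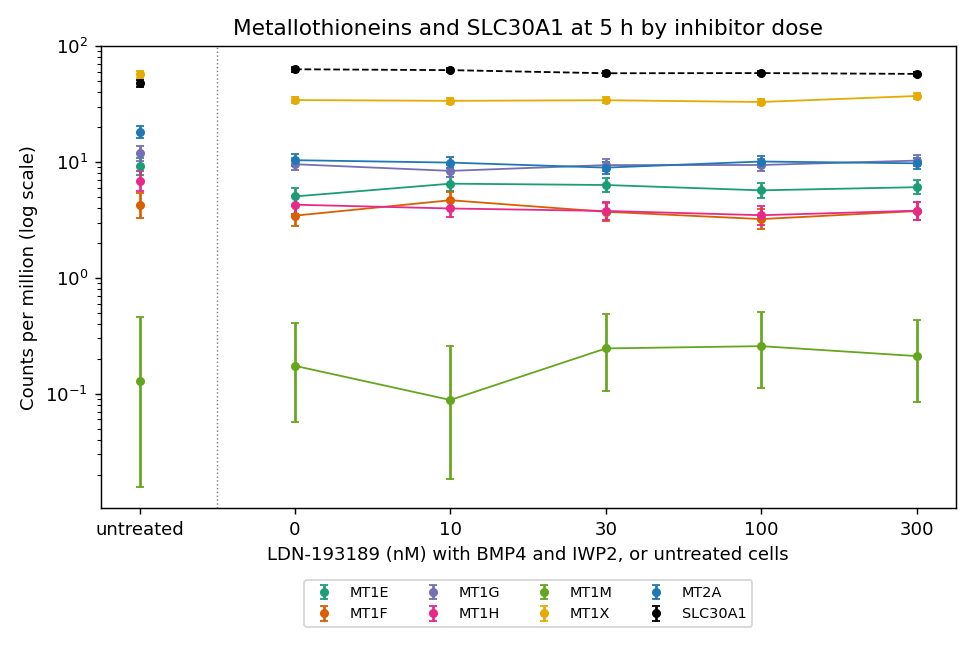
Level of each gene at 5 h in CPM (log axis) by LDN dose, with the untreated library at the left; bars are exact 95% Poisson intervals, which cover counting error only, and each point is 1 library. MT1X stays between 33.0 and 37.1 CPM over the doses and MT1F between 3.22 and 4.68, and 6 of the 7 metallothioneins are higher in untreated cells than at 0 nM.

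In untreated cells MT1E, MT1G, MT1H, MT1X and MT2A were higher, and SLC30A1 lower, than in each of the 5 libraries with BMP4, while MT1F (4.23 CPM) and MT1M lay within their range. The summed metallothionein level was 107.8 CPM, 1.61-fold higher than at 0 nM LDN (counting interval 1.50 to 1.71) and 1.52-fold higher than at 300 nM. MT1E was 1.83-fold higher in untreated cells than at 0 nM, MT2A 1.76-fold (18.3 against 10.4 CPM), MT1X 1.67-fold (57.2 against 34.3 CPM) and MT1H 1.60-fold. MT1G was 1.25-fold higher (1.03 to 1.51) and MT1F 1.23-fold (0.886 to 1.69), the latter within counting error. Against 300 nM, MT1G was 1.16-fold higher (0.964 to 1.39), also within counting error. For 5 of the 6 metallothioneins above 1 CPM, the interval of this ratio lay above 1. SLC30A1 went the other way, with 47.6 CPM in untreated cells and 63.2 at 0 nM, a ratio of 1.33 (1.22 to 1.45).

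None of the 7 measured members was at least 2-fold lower at 0 nM LDN than in untreated cells, against 2.1% of all genes. The untreated library differed from the others in BMP4, IWP2 and the ROCK inhibitor together, was the shallowest and had the highest mitochondrial share, and the parts of these in the difference cannot be told apart. The libraries with 0 and 300 nM LDN lay close together, and both lay below the untreated one.

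In the dose response the make-up also stood apart from the time series. MT1X was 53.8% to 56.3% of the summed FPKM in these 6 libraries and MT2A 14.8% to 18.5%, with MT1X first in level in every one. The experiments differed in RNA selection, extraction kit, sampling times and depth. The shares are therefore set side by side as a description, and the parts of these in the difference cannot be told apart.

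Other genes of zinc handling were called in both directions. Of 9 further exporters of the SLC30 family, 6 were tested over time, of which 1 fell and 1 rose, near the shares of all genes (17.5% and 19.2%). Of 14 importers of the SLC39 family, 11 were tested, of which 2 fell and 5 rose. The median slope per 10 h was −0.06 for the exporters and 0.17 for the importers, and −0.0011 over all genes. In the dose response, 1 of 5 exporters rose with the inhibitor and none fell, and of 11 importers 2 rose and 1 fell, where 10.4% of all genes rose and 10.9% fell.

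SLC39A8, an importer of zinc and manganese, had 18.3 and 17.7 CPM at 0 h, and 22.9, 33.4, 32.6, 49.7 and 170.0 CPM at the 5 later times. Every later library exceeded both 0 h libraries, and the slope was 0.76 ± 0.07 per 10 h (edgeR adjusted p = 0.000179). With the inhibitor it ran the opposite way, at 31.6, 26.8, 23.8, 21.4 and 19.8 CPM from 0 to 300 nM (slope −0.16 ± 0.02 per step, edgeR adjusted p = 7.45e-05). Untreated cells had 20.1 CPM, close to the level at 300 nM.

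SLC39A14, an importer of zinc and iron, showed the reverse pattern. It had 208.6 and 208.5 CPM at 0 h, and 170.6, 166.3, 148.1, 124.7 and 86.8 CPM at the 5 later times (slope −0.22 ± 0.04, edgeR adjusted p = 0.00333). With the inhibitor its level was 200.6, 224.2, 247.1, 258.5 and 274.0 CPM from 0 to 300 nM (slope 0.11 ± 0.01 per step, edgeR adjusted p = 1.99e-05), and it was 327.2 CPM in untreated cells. SLC39A6, an importer of the plasma membrane, rose with the inhibitor from 58.8 to 75.0 CPM (edgeR adjusted p = 0.000260). SLC39A8 and SLC39A14 followed the dose in order, at doses where the metallothionein sum varied by 1.09-fold. With concentration in nM in place of dose steps, none of the 3 importers passed the test (edgeR adjusted p = 0.112 for SLC39A8, 0.125 for SLC39A14 and 0.0904 for SLC39A6).

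SLC30A3, which loads zinc into vesicles, fell from 11.5 ± 1.21 CPM at 0 h to 2.11 at 42 h (slope −0.49 ± 0.12, edgeR adjusted p = 0.0123) and rose with the inhibitor from 4.80 to 9.77 CPM (slope 0.25 ± 0.04, edgeR adjusted p = 0.00140). Neither call held in every set of libraries: the first had an edgeR adjusted p = 0.0730 without the 42 h library and the second an edgeR adjusted p = 0.0632 without the 300 nM library. SLC30A2, another vesicular transporter, rose from 0.666 to 12.97 CPM over time (slope 1.305 ± 0.20, edgeR adjusted p = 0.00187). SLC39A10, an importer of the cell surface, fell from 171 ± 24.9 to 88.3 CPM (edgeR adjusted p = 0.0238, and 0.0542 without 0 h replicate 1 or 0.0650 without the 28 h library). SLC39A7, which releases zinc from the endoplasmic reticulum, rose from 94.6 ± 13.9 to 162 CPM (edgeR adjusted p = 0.00250, and 0.0539 without the 42 h library). The other importers that rose, SLC39A3, SLC39A11 and SLC39A13, also missed the threshold when the 42 h library was left out, so SLC39A8 was the 1 of the 5 risers whose call held in every fit with a library left out.

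**Figure D5:**
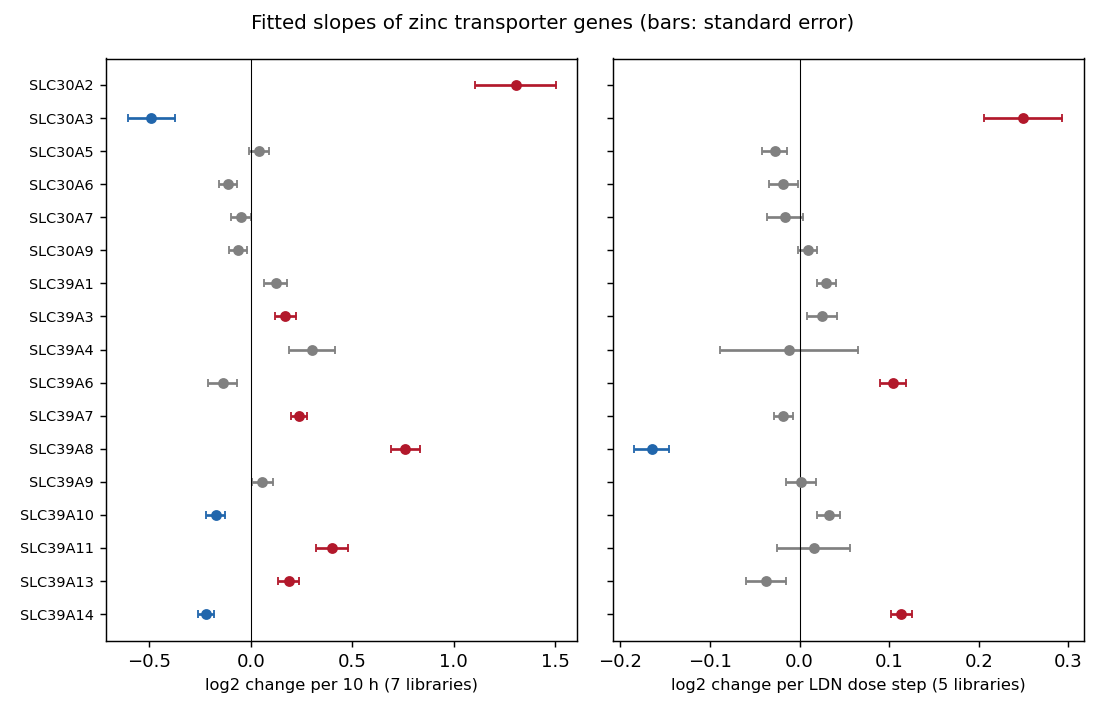
Fitted slopes of the tested SLC30 and SLC39 genes, per 10 h over 7 libraries (left) and per LDN dose step over 5 libraries (right), on log2 scales that differ between the panels. Bars are standard errors, red marks genes that rose and blue genes that fell at an adjusted p under 0.05, and SLC39A8 and SLC39A14 point in opposite directions in each panel.

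Neighbouring programmes known to share regulators or inducers with metallothioneins were counted in the same way. Beside their counts stand the shares over all genes given above, 19.2% rising and 17.5% falling over time, and 10.4% rising and 10.9% falling with the inhibitor, and with lists this short nothing particular to a list is read from them. Of 7 tested copper-handling genes, 2 rose over time and 0 fell, and 0 were called with dose. The risers were ATP7B, the copper-exporting ATPase, at 13.1 ± 0.28 CPM at 0 h and 46.0 at 42 h (edgeR adjusted p = 0.000144), and the copper chaperone ATOX1, at 12.2 ± 2.05 and 27.5 CPM (edgeR adjusted p = 0.00381).

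Of 9 oxidative stress targets of NRF2, 2 rose over time and 0 fell, and with the inhibitor 4 rose and 0 fell, where 19.2% and 10.4% of all genes rose. GCLM, a subunit of the enzyme that starts glutathione synthesis, had 35.6 ± 0.63 CPM at 0 h and then 31.9, 25.2, 22.7, 71.3 and 278 CPM (edgeR adjusted p = 0.00661, and 0.242 without the 42 h library). The second to rise, OSGIN1, had 1.77 CPM at 0 h and 2.76 at 42 h (edgeR adjusted p = 0.0409, and 0.0906 without 0 h replicate 1). HMOX1, which degrades haem, rose with the inhibitor from 37.2 to 55.6 CPM (slope 0.14 ± 0.02 per step, edgeR adjusted p = 6.86e-05). GCLC, the catalytic partner of GCLM, went from 54.1 to 68.3 CPM (edgeR adjusted p = 0.000344) and TXN, thioredoxin, from 81.6 to 94.1 (edgeR adjusted p = 0.00406). TXNRD1, thioredoxin reductase, went from 189 to 207 CPM (edgeR adjusted p = 0.0222, and 0.270 without the 300 nM library). With concentration in nM none of these 4 passed the test. Over time HMOX1 had 42.9 and 71.2 CPM at 0 h and 25.7 to 35.9 CPM at all later times (edgeR adjusted p = 0.259). On library totals GCLC, TXN and TXNRD1 fell over time (edgeR adjusted p = 0.0159, 0.0267 and 0.0190). There GCLM still rose (0.00819) and OSGIN1 missed the threshold (0.0984). Under that scaling 65.7% of all genes called over time fell. With hours squared added, HMOX1, GCLC and TXN also passed the test (edgeR adjusted p = 0.0153, 0.00381 and 0.0223), which gives no direction.

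Of 8 heat shock genes, 3 rose over time, and 2 fell with the inhibitor. The shares over all genes were 19.2% and 10.9%. The rise of HSPB1 missed the threshold without the 42 h library. That of DNAJB1 (slope 0.17 per 10 h, edgeR adjusted p = 0.0428) missed it without 0 h replicate 1, 0 h replicate 2, 12 h or 42 h, and its slope without 42 h was 0.018. The fall of HSPA8 (edgeR adjusted p = 0.0443) missed it in each fit that left out 1 of the 4 libraries with LDN. BAG3, a cochaperone, had 18.0 ± 1.65 CPM at 0 h and 68.6 at 42 h (edgeR adjusted p = 0.00150), and 28.1 CPM at 0 nM against 19.6 at 300 nM (edgeR adjusted p = 0.00132). Of 6 glucocorticoid-responsive genes, 2 rose and 1 fell over time, and of 5 in the dose response 1 rose and 1 fell, so each count is 1 or 2 genes beside shares of 19.2%, 17.5%, 10.4% and 10.9% over all genes. DUSP1, a phosphatase of MAP kinases, rose over time from 9.55 to 19.3 CPM (edgeR adjusted p = 0.00459), and the clock gene PER1 rose with the inhibitor from 26.1 to 35.7 CPM (edgeR adjusted p = 0.00179, and 0.191 with concentration in nM). FKBP5, a steroid receptor cochaperone, fell from 57.7 ± 10.6 to 13.4 CPM (edgeR adjusted p = 0.00304). SGK1, a kinase induced by steroids and stress, fell with the inhibitor from 47.3 to 9.87 CPM (slope −0.56 ± 0.02 per step, edgeR adjusted p = 7.67e-09). Its rise over time (edgeR adjusted p = 0.0157) passed the threshold only with both 0 h libraries in the fit, at 0.0652 without replicate 1 and 0.0530 without replicate 2.

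The genes whose profile was most like the metallothionein sum were sought among 11308 genes over the 13 libraries, by Pearson's r of log2(CPM + 0.5) centred within each experiment. The first 5 were MIR124-1HG (r = 0.993), the transcript ENSG00000254339 (0.992), TRIM22 (0.992), MAPRE2 (0.991) and GTF2H2 (0.990). The libraries share the time course and the untreated library, so these values describe a common order of libraries. Taken by experiment, MIR124-1HG had r = 0.997 in the time series and only 0.540 in the dose response. In the dose response the others ran from 0.792 (GTF2H2) to 0.939 (ENSG00000254339). TRIM22, an interferon-induced gene, had 14.2, 11.9 and 0.784 CPM at 0, 4 and 42 h, and MAPRE2, a microtubule-binding protein, had 82.7, 58.8 and 13.3 CPM. At 4 h these stood higher against 0 h than the metallothionein sum did. SLC30A1 had r = 0.558 with the sum.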

How the data were processed

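Bulk RNA-seq of 13 libraries was used, 7 of the time series and 6 of the dose response at 5 h. The authors trimmed reads with Cutadapt, and per the labels mapped them with STAR 2.7.8a to GRCh38 and estimated expression with RSEM 1.3.3. The annotation release is not given in the sources used here. The deposited files give RSEM expected counts (whole numbers, with no scaling for depth) and FPKM, which the authors normalised for length and depth. FPKM served for levels between genes and as an alternative. Each table lists 61546 features, of which 5 are not human genes and were left out of tests.

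CPM was computed on the library total. Trends against hours and against dose step (0 to 4) were fitted, for genes averaging 1 CPM or more, by edgeR 4.0.16 (quasi-likelihood test, TMM, Benjamini-Hochberg adjustment over all genes, threshold 0.05) in R 4.3.3, with DESeq2 1.42.0 as an alternative. With no replicates after 0 h, error was estimated from the scatter around the fitted line, and p-values measure only the spread between these libraries, which may be technical. Ratios carry exact 95% counting intervals (conditional binomial, or Poisson for levels), recentred on the mean CPM where 0 h is the base, which cover counting error only. The floor was 3 counts. On simulated data the time fit recovered 70 of 100 genes changed by log2 1 over the range and 100 of 100 changed by log2 2, with 8 false calls among 15976 genes. The dose fit recovered 52 and 99 of 100, with 8 false calls among 14907 genes. The simulation gave every gene the same extra spread between libraries and only straight-line changes. These figures therefore need not hold for the real profiles.

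The members and gene lists were chosen with earlier results of these data known. Named genes were all members, list genes past the threshold in a trend test, MTF1 and the 5 genes most like the summed level. The neighbours of the cluster were added after their values were seen. Sequences and windows came from RefSeq (GRCh38.p14) and GENCODE transcripts. Alternatives covered scaling, filters, test, covariate, each library left out and the make-up of the sum. Other steps ran in Python 3.11.15 with pandas 2.3.3 and scipy 1.17.1, and plots in matplotlib 3.10.9.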

Additional observations from a re-analysis of the deposited data

How the results depend on the processing

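Over 103 alternative values in the time series, the slopes of the 7 metallothioneins kept their direction and stayed past the threshold, and that of SLC30A1 stayed short of it. None of the 82 values in the dose response passed it, and there the slopes of MT1E, MT1F, MT1X and MT2A crossed 0 (from −0.12 to 0.060 per step). The members were chosen with their time and dose profiles known. These values therefore describe how the fits depend on processing and carry no test of a response or of its absence. Slopes per 10 h ran from −2.90 to −2.60 for MT1G, from −1.37 to −1.25 for MT2A and from −0.10 to 0.02 for SLC30A1. The summed level at 4 h against 0 h was log2 −1.02, and −1.17 on summed FPKM. At 42 h it was log2 −6.67, against −6.43 with TMM-scaled sizes, −6.44 with DESeq2 size factors and −7.14 without MT2A. The 0 nM library against untreated cells was log2 −0.68, and −0.78 with DESeq2 size factors. Over all genes, leaving out 1 library gave 1387 to 3166 falling and 1872 to 3436 rising genes over time (2793 and 3072 with all libraries), lowest without 42 h. For dose it gave 1104 to 1551 falling and 874 to 1423 rising genes (1624 and 1556 with all), with 874 rising without 0 nM and 994 without 300 nM. With concentration in nM, 312 genes fell and 79 rose. On library totals 4069 genes fell and 2121 rose over time, 65.7% falling against 47.6% with TMM. Among list genes, 32 time and 19 dose values lost the threshold, and 11 and 5 gained it. HSPB1 had 0.39 per 10 h, with 1 library left out −0.023 (without 42 h) to 0.44. The causes were not tested, and the part of the smaller number of libraries in each left-out fit was not tested either. No paired analysis was possible because only the 0 h group has a second replicate. MT1M, at 3 to 8 counts per library with BMP4 and 2 in untreated cells, had too few counts in the dose response for its differences to be read.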
